A study of Mus musculus with 6 samples.

Results

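The alpha-arrestin family was followed in mouse acute myeloid leukaemia cells with and without the DNA methyltransferase gene Dnmt3b. Its 6 mouse genes, Arrdc1, Arrdc2, Arrdc3, Arrdc4, Arrdc5 and Txnip, were taken by gene symbol from 30142 named genes of an Affymetrix array, and each was represented by a single row of the table. The family was chosen by measured values: Arrdc3 had been among the genes that differed most between the groups in these same data. The differences of its members between knockout and control are therefore given as a description, without p-values.

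Leukaemia was driven by MLL-AF9, a fusion oncogene, and recipient mice with end-stage disease gave the bone marrow from which the cells were sorted. The groups are 3 arrays of leukaemia cells of littermate control genotype and 3 arrays of Dnmt3b-KO leukaemia cells, and MLL-AF9 is common to both. How Dnmt3b was deleted, in which cells, and whether each array is a separate mouse are not given in the sources used here, and p-values measure only the spread between these arrays, which may be technical. The deposited values are log2 values that reach 19.59, above the 16 that a 16-bit scanner allows, so an unstated step changed their scale, and differences are given in deposited log2 units and not as folds.

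Alpha-arrestins are adaptor proteins with an arrestin fold. Most carry PPxY motifs in their tails that recruit ubiquitin ligases of the NEDD4 family to membrane proteins, which are then internalised or sorted. Txnip also binds and inhibits thioredoxin and limits glucose uptake through glucose transporters, and with Arrdc4 it is a classical target of the glucose-sensing transcription factor MondoA (Mlxip) and its partner Mlx. Arrdc3 acts on the beta-adrenergic receptor and other surface receptors, and Arrdc1 drives the budding of vesicles from the plasma membrane through the ESCRT machinery.

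Array medians ran from 4.75 to 4.85. Dnmt3b itself measured 6.76, 6.83 and 6.78 on the control arrays, and replicates 1, 2 and 3 of Dnmt3b-KO gave 6.47, 6.63 and 5.96, a difference of -0.44 ± 0.17 (SE; limma, adjusted p = 0.78), or -0.24 ± 0.07 without replicate 3 (adjusted p = 0.16), so the targeted gene checks the labels only weakly. Dnmt3b-KO replicate 3 stood apart: it correlated with the other arrays across genes at 0.981 to 0.982, against 0.998 to 0.999 among those 5. Of 11 measured macrophage markers, 7 were higher there than on Dnmt3b-KO replicates 1 and 2 by more than 1 and 1, Vcam1, was lower by more than 1, and their mean was 9.96 on that array and 6.70 to 6.86 on the others. C1qa, Marco and Cd163 stayed near the median gene there, at 4.84, 5.06 and 4.89. The leukaemia markers Ptprc, Itgam, Kit, Meis1, Mpo and Cebpa were well above the median gene on all 6 arrays. On Dnmt3b-KO replicate 3, compared with replicates 1 and 2, Kit differed by -1.70, Meis1 by -1.81, Mpo by -0.91 and Cebpa by -0.99, and Itgam and Ptprc by 1.49 and 0.89. Differences are therefore given over 6 arrays and over the 5 arrays without Dnmt3b-KO replicate 3.

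Dnmt3b methylates cytosines at CpG sites, so the promoter sequences of the 3 members with the largest differences over 6 arrays are shown before their levels; over 5 arrays Arrdc1 ranks above Arrdc4. Each line gives the 250 bases before a RefSeq transcription start (assembly GRCm38.p6), read 5′ to 3′ on the gene's strand. Capitals mark matches on either strand to CACGTG (the E-box), to CACGNG followed after 5 bases by another CACGNG (a pair of E-box-like sites at the spacing of a carbohydrate response element), to GTAAACA (the forkhead motif bound by FOXO factors) and to CCAAT.
Arrdc3, chr13:80883134-80883383, plus strand: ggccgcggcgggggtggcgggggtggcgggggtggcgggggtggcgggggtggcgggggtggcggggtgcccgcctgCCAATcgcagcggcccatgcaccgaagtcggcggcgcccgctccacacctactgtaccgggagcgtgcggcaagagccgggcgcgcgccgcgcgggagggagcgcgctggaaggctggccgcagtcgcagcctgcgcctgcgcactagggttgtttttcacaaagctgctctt
Txnip, chr3:96557707-96557956, plus strand: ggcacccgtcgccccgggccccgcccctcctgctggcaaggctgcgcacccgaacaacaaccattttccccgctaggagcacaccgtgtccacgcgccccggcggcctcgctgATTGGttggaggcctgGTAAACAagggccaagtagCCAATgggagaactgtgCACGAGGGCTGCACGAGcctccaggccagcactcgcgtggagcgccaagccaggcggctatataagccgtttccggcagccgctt
Arrdc4, chr7:68749239-68749488, minus strand: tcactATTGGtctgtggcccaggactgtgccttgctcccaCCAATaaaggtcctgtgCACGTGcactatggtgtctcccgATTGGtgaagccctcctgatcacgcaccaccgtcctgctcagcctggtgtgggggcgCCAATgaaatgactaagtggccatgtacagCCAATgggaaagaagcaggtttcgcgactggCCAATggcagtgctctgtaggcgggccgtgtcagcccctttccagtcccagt

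The Arrdc3 window was the richest in CpG of the 3, with 33 CpG sites, more than 96.0% of the 32851 windows in the table held. The window of Txnip held 22 CpG sites and that of Arrdc4 9, beside a median of 6 over all windows. Arrdc3 has 3 listed starts, and the windows of the other two held 29 and 24. Arrdc2, Arrdc1 and Arrdc5, whose windows are not printed, held 15, 10 and 2, so the family spans CpG-rich and CpG-poor starts. No methylation was measured in these samples.

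The pair of E-box-like sites in Txnip reads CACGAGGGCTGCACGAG and begins 85 bases before the start. It was found in 0.0457% of all windows, and this pattern was written with the Txnip promoter in view. A forkhead match, GTAAACA, begins 121 bases before the Txnip start, and such a match was present in 3.17% of windows. Arrdc4 held a single CACGTG, 193 bases before its start, which 6.02% of windows also held, and 6 matches to CCAAT, a motif present in 33.8% of windows. Arrdc3 held 1 CCAAT in the window shown and no other motif searched. None of the 6 members held AGAACA followed after 3 bases by TGTTCT, a full glucocorticoid response element, which was in 0.00913% of windows. A pattern this rare would be missing from almost any 6 genes, so nothing is read from its absence. A match describes letters only, and binding at these sites was not measured.

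Arrdc3 had the largest difference of the family, both over 6 arrays and over 5. Its log2 values were 6.87, 7.10 and 7.05 on the control arrays, whereas Dnmt3b-KO replicates 1, 2 and 3 gave 9.05, 8.55 and 8.09. All 3 Dnmt3b-KO arrays lay above every control, and replicate 3 was the lowest of them. The difference was 1.56 ± 0.24 (SE) over 6 arrays and 1.80 ± 0.15 over 5, where leaving out 1 more array gave 1.55 to 2.05. The Dnmt3b-KO arrays varied more than the controls, with an SD of 0.48 (n = 3) against 0.12 (n = 3).

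Txnip differed most on the array that stood apart. It measured 13.13, 13.05 and 13.05 on the control arrays, whereas Dnmt3b-KO replicates 1, 2 and 3 gave 13.94, 13.49 and 15.32. The groups did not overlap, but replicate 3 was far above the others of its group. The difference was 1.17 ± 0.46 (SE) over 6 arrays and 0.64 ± 0.13 over 5, so the size over 6 arrays rests largely on replicate 3. Over 5 arrays it was 0.41 without Dnmt3b-KO replicate 1 and 0.87 without replicate 2. The control SD of Txnip, 0.05 (n = 3), was below the median of 0.09 among genes within 0.5 of its level, whereas that of Arrdc3, 0.12, was above the corresponding median of 0.08.

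Arrdc4, the other classical MondoA target of the family, had the same order of Dnmt3b-KO arrays as Txnip on a smaller scale. Its values were 6.63, 6.72 and 6.53 in control and 6.91, 6.72 and 7.22 in Dnmt3b-KO. Replicate 2 lay just above the highest control, so the groups were separated only narrowly. The difference was 0.32 ± 0.14 (SE) over 6 arrays and 0.19 ± 0.08 over 5, which became 0.10 without Dnmt3b-KO replicate 1 and 0.28 without replicate 2.

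Arrdc1, the vesicle-budding member, measured 9.07, 8.97 and 9.19 in control and 9.37, 9.35 and 9.03 in Dnmt3b-KO. Above every control lay replicates 1 and 2, while replicate 3 was within the control values. The difference was 0.18 ± 0.12 (SE) over 6 arrays and 0.29 ± 0.08 over 5.

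Arrdc2, a close relative of Arrdc3, measured 5.42, 5.37 and 5.44 in control and 5.49, 5.58 and 5.28 in Dnmt3b-KO. Replicate 3 lay below every control while the other knockout arrays lay above. The difference was 0.04 ± 0.09 (SE) over 6 arrays and 0.13 ± 0.06 over 5.

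Arrdc5 measured 3.79, 3.87 and 3.88 in control and 3.92, 4.03 and 4.15 in Dnmt3b-KO. These values lie below the median gene of every array, where signal may be close to background, so the difference of 0.19 ± 0.08 (SE) over 6 arrays and 0.13 ± 0.06 over 5 has no exact size.

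**Figure D1:**
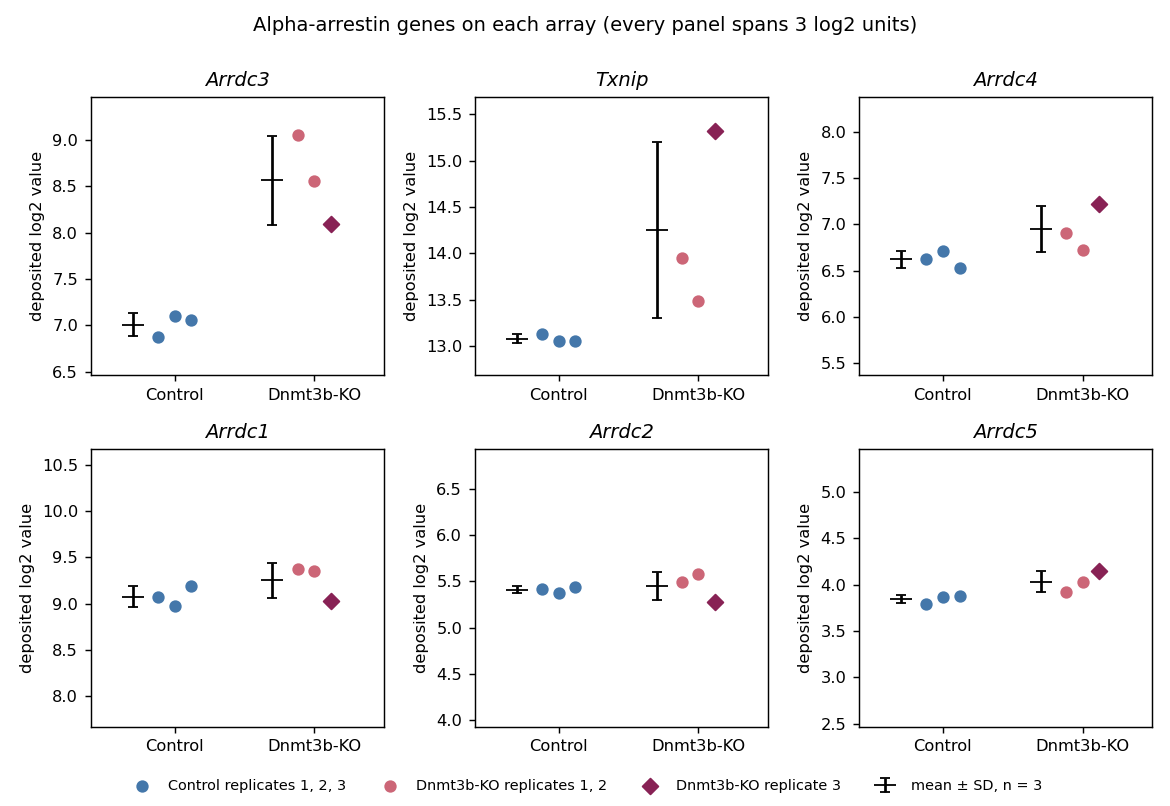
Deposited log2 values (vertical axis) of the 6 alpha-arrestin genes on the 3 control arrays (blue) and on Dnmt3b-KO replicates 1 and 2 (pink circles) and 3 (purple diamond), with the mean ± SD of each group of 3 in black. Arrdc3 lies between 8.09 and 9.05 on the Dnmt3b-KO arrays against 6.87 to 7.10 in control, while Txnip reaches 15.32 on replicate 3.

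Counted over the family, all 3 Dnmt3b-KO values lay above all controls for 4 of 6 members over 6 arrays, which held for 6.68% of all genes, and 0 of 6 lay below, which held for 8.21%. Over 5 arrays both Dnmt3b-KO values lay above all controls for 6 of 6 members, against 15.1% of all genes, and 0 of 6 had both below, against 17.4%. The median difference of the members was 0.26 over 6 arrays and 0.24 over 5, beside -0.0036 and -0.0096 over all genes. Past the threshold of an adjusted p of 0.05 (limma, Benjamini-Hochberg over all genes) were 0 of 6 members over 6 arrays, where 0% of all genes passed, with 1920 genes at an unadjusted p under 0.05. Over 5 arrays 1 of 6, Arrdc3, passed on the higher side, where 0.939% of all genes did on that side and 1.69% in either direction. Arrdc3 had been chosen for this difference, and nothing is read from these counts.

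Dnmt3b-KO replicate 3 split the family. Relative to the mean of replicates 1 and 2 it was higher for Txnip by 1.60, for Arrdc4 by 0.40 and for Arrdc5 by 0.17, and it differed by -0.71 for Arrdc3, by -0.33 for Arrdc1 and by -0.25 for Arrdc2. Of the 6 members, only Txnip differed by more than 1, as 4.03% of all genes did on the higher side, and 0 of 6 lay below by more than 1, as 2.94% of all genes did. Most macrophage markers and Itgam were higher on the same array and Kit and Meis1 lower, and their part in the Txnip value was not tested. In sorted bulk cells, a change in the share of a cell type and a change in RNA per cell cannot be told apart. The mean of 9 mast cell, basophil and eosinophil markers also moved with the groups, from 8.74 to 8.80 in control to 7.53 to 7.80 on Dnmt3b-KO replicates 1 and 2 and 6.42 on replicate 3. Its members did not move as one. Over 5 arrays 6 of the 9 fell, among them Cpa3, Prg2 and Epx, beside 0.75% of all genes (limma). Siglecf, 1 of the 9, rose, beside 0.939% of all genes, while Mcpt8 also lay above every control on replicates 1 and 2. The part of these cells in the Arrdc3 values was not tested.

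**Figure D2:**
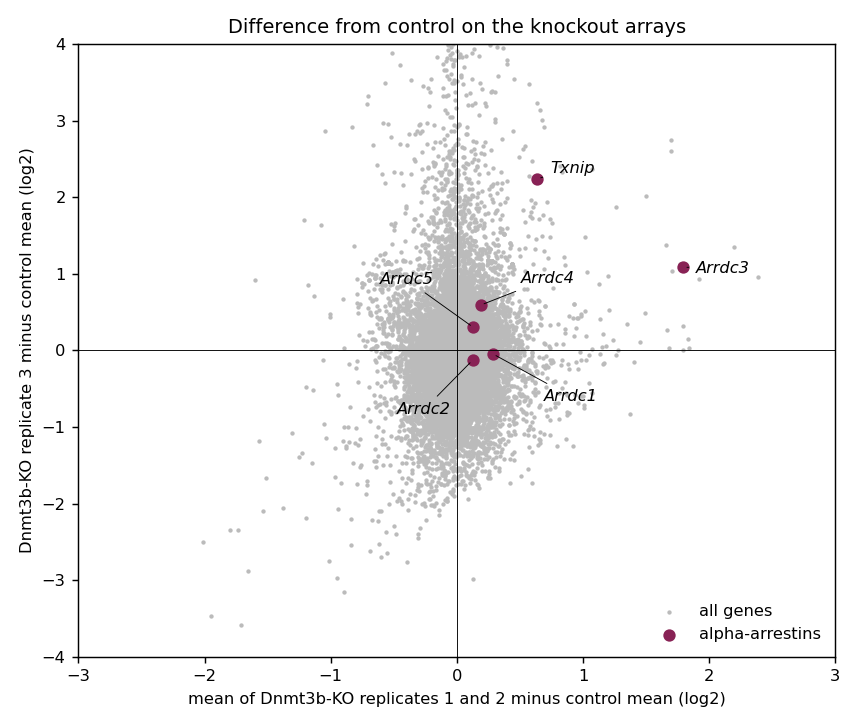
Each gene's difference from the control mean on Dnmt3b-KO replicates 1 and 2 (horizontal axis, log2) and on Dnmt3b-KO replicate 3 (vertical axis, log2), with all genes in grey and the 6 alpha-arrestins in purple; both axes subtract the same control mean, and 123 genes lie outside the plotted range. Arrdc3 lies far right at 1.80 and 1.09, Txnip lies high at 0.64 and 2.24, and the other members lie close to the middle of the cloud.

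The genes around the alpha-arrestins were taken from 8 lists of regulators, partners and cargo, with 69 of 74 listed genes measured. Over 6 arrays 0 of the 69 passed the threshold, as 0% of all genes did. An unadjusted p under 0.05 (limma) was reached by 8 of the 69, beside 1920 of all 30142 genes. Over 5 arrays 4 rose and 1 fell, beside 0.939% and 0.75% of all genes, and 64 did not pass (limma). Of the 4 that rose, Klf2 and Klf6 were known to differ in these data when the lists were made. Both are also among the 8, so nothing is read from these counts. When 1 further array was removed, which leaves a smaller design, the count was 0 without control replicate 1, 0 without control replicate 2, 3 without control replicate 3, and 0 without either of the Dnmt3b-KO replicates 1 and 2. The differences themselves kept their sign and stayed between -0.61 and -0.53 for Nedd4, 0.86 and 1.02 for Tsc22d3, 0.56 and 0.74 for Bcl6, 1.44 and 1.95 for Klf6, and 1.45 and 2.08 for Klf2. A fit without empirical Bayes, which does not share the estimate of spread across genes, gave 0.

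Among the transcription factors upstream of Txnip and Arrdc4, none of 3 passed. Mlxip, which encodes MondoA, differed by -0.04 ± 0.09 (SE) over 5 arrays (limma, adjusted p = 0.92) and by -0.13 ± 0.12 over 6 (adjusted p = 0.83), and Mlxipl, which encodes the related factor ChREBP, measured 3.73 to 3.94 on all arrays, below the median gene. Mlx, the shared partner of both, measured 12.18, 12.07 and 12.10 in control and 11.76, 11.93 and 11.45 in Dnmt3b-KO. All 3 Dnmt3b-KO values of Mlx lay below the controls, opposite in sign to Txnip, and the difference of -0.27 ± 0.07 over 5 arrays did not pass (limma, adjusted p = 0.145), nor did that of -0.40 ± 0.13 over 6 (adjusted p = 0.705).

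None of 10 measured genes of the thioredoxin system passed. Txn1, the thioredoxin that Txnip binds, differed by 0.0026 ± 0.0641 (SE) over 5 arrays (limma, adjusted p = 0.99) and by -0.02 ± 0.06 over 6 (adjusted p = 0.95), and ranged from 13.37 to 13.52. Prdx2, a peroxiredoxin that removes peroxide with electrons from thioredoxin, had the smallest p of the list and differed by -0.43 ± 0.08 over 5 arrays (adjusted p = 0.064) and by -0.27 ± 0.15 over 6 (adjusted p = 0.83). On Dnmt3b-KO replicate 3 Prdx2 measured 7.38, within the control values of 7.24 to 7.46.

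Of 11 ubiquitin ligases of the NEDD4 family and their NDFIP adaptors, 1 fell and 10 did not pass over 5 arrays. Nedd4, the founding ligase of the family, measured 14.29, 14.27 and 14.12 on the control arrays and 13.66, 13.68 and 11.85 on Dnmt3b-KO replicates 1, 2 and 3. It fell by 0.56 ± 0.07 (SE) over 5 arrays (limma, adjusted p = 0.029), and the difference was -1.17 ± 0.51 over 6 (adjusted p = 0.81). Replicate 3 was lower still, so the size over 6 arrays rests on that array. The related ligases Itch, Wwp1 and Nedd4l did not pass.

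None of 11 ESCRT and vesicle budding genes passed, among them Tsg101, the partner of Arrdc1. Tsg101 measured 9.82, 9.81 and 9.72 in control and 9.71, 9.70 and 9.66 in Dnmt3b-KO. All 3 Dnmt3b-KO values lay narrowly below the controls, as 8.21% of all genes did. The smallest p belonged to Mvb12a, an ESCRT-I subunit, with a difference of -0.34 ± 0.10 (SE) over 5 arrays (limma, adjusted p = 0.196) and -0.16 ± 0.17 over 6 (adjusted p = 0.84). None of 6 measured visual arrestin, beta-arrestin and VPS26 genes passed. Arrb1, which encodes beta-arrestin 1, came closest, with 10.50, 10.38 and 10.57 in control and 10.93, 10.87 and 10.60 in Dnmt3b-KO. All 3 Dnmt3b-KO values of Arrb1 lay above the controls, and the difference was 0.42 ± 0.07 over 5 arrays (limma, adjusted p = 0.060) and 0.32 ± 0.11 over 6 (adjusted p = 0.73).

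None of 7 measured transporters and receptors known as cargo passed. The glucose transporter gene Slc2a3 had the smallest p, with -0.28 ± 0.06 (SE) over 5 arrays (limma, adjusted p = 0.106), which turned to 0.28 ± 0.46 over 6 (adjusted p = 0.90). Slc2a1, the main glucose transporter whose surface level Txnip limits, was looked at after its values were seen: it measured 10.54, 10.37 and 10.74 in control and 9.85, 10.26 and 12.21 in Dnmt3b-KO. Both transporters were below every control on Dnmt3b-KO replicates 1 and 2 and above every control on replicate 3, and the difference of Slc2a1 turned from -0.49 ± 0.15 over 5 arrays (adjusted p = 0.196) to 0.23 ± 0.61 over 6 (adjusted p = 0.94).

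Of 9 genes in a glucocorticoid list, kept because Arrdc2 and Arrdc3 respond to these hormones, 1 rose and 8 did not pass over 5 arrays. Besides glucocorticoid-induced genes the list holds Nr3c1, which encodes the glucocorticoid receptor itself. Tsc22d3, a classical glucocorticoid target also called GILZ, measured 7.44, 7.55 and 7.76 in control and 8.45, 8.58 and 7.76 in Dnmt3b-KO. It rose by 0.93 ± 0.10 (SE) over 5 arrays (limma, adjusted p = 0.021), while replicate 3 was close to the highest control, and the difference over 6 arrays was 0.68 ± 0.23 (adjusted p = 0.72). Both Dnmt3b-KO values lay above all controls for 7 of the 9 genes over 5 arrays, against 15.1% of all genes, and all 3 did for 5 of the 9 over 6 arrays, against 6.68%. These 5 were Tsc22d3, Fkbp5, Sgk1, Dusp1 and Zfp36, and Dusp1 and Zfp36 are also immediate early genes. Over 5 arrays Dusp1 differed by 1.70 ± 0.31 (adjusted p = 0.063), Zfp36 by 0.93 ± 0.27 (adjusted p = 0.17), Sgk1 by 0.32 ± 0.07 (adjusted p = 0.106) and Fkbp5 by 0.06 ± 0.05 (adjusted p = 0.72). Nr3c1 was 1 of the 7 above all controls over 5 arrays. In the other direction, 1 of the 9, Klf9, had both values below all controls over 5 arrays, as 17.4% of all genes did. Klf9 differed by -0.42 ± 0.13 over 5 arrays (limma, adjusted p = 0.199), but measured 8.61 on replicate 3, above every control. Other lists also departed from the shares of all genes over 5 arrays. Of the 12 genes in the FOXO list, 6 lay above all controls and 0 below, and of the 7 transporters and receptors, 0 lay above and 4 below. The lists were made with earlier results of these data known, so nothing is read from these counts.

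Of 12 FOXO factors and FOXO-induced genes, 3 rose and 9 did not pass over 5 arrays. Bcl6, a transcriptional repressor, measured 5.43, 5.33 and 5.42 in control and 6.13, 5.96 and 7.10 in Dnmt3b-KO, and rose by 0.65 ± 0.07 over 5 arrays (SE; limma, adjusted p = 0.022), with a difference of 1.00 ± 0.30 over 6 (adjusted p = 0.68). The Krüppel-like factor genes Klf6 and Klf2 rose by 1.70 ± 0.20 and 1.77 ± 0.26 (adjusted p = 0.024 and 0.037), with differences of 2.04 ± 0.34 and 1.55 ± 0.30 over 6 arrays (adjusted p = 0.53 and 0.57), and both were already known from these data when the list was made. Klf6 and Bcl6 were highest on replicate 3, as Txnip was, whereas Klf2 was lowest there among the Dnmt3b-KO arrays, as Arrdc3 was. Pik3ip1 and Ccng2, which FOXO factors also induce, did not pass.

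**Figure D3:**
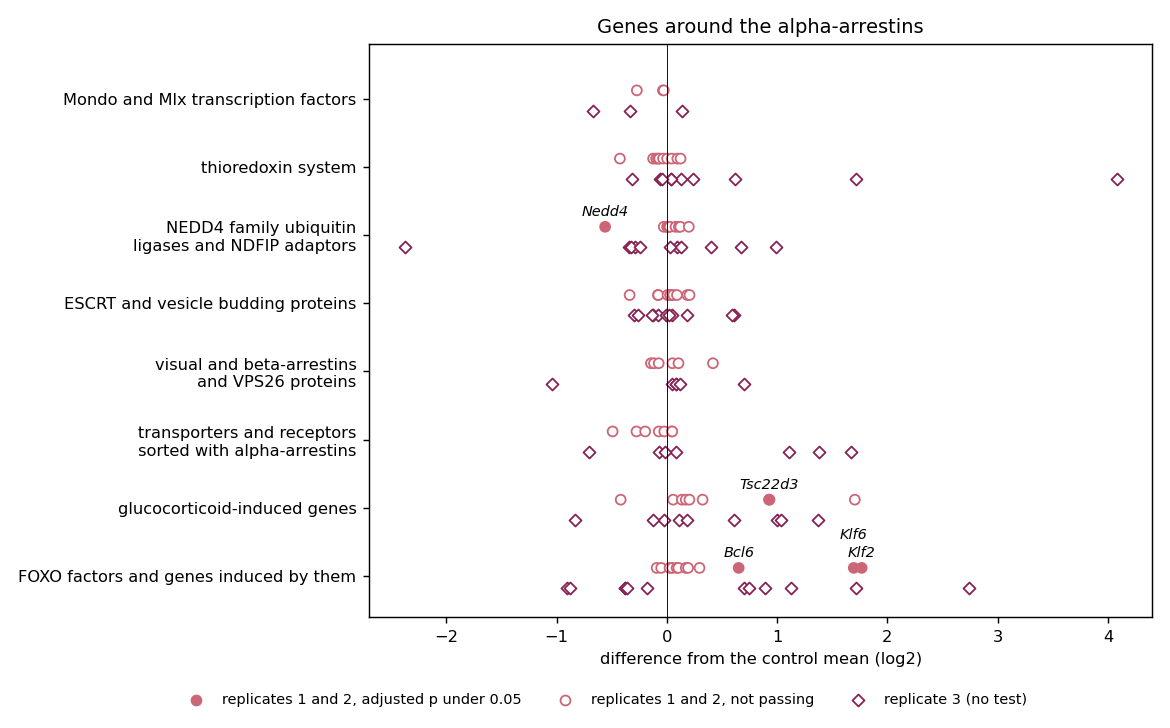
Differences from the control mean (horizontal axis, log2) of 69 genes in 8 lists (rows), as the mean of Dnmt3b-KO replicates 1 and 2 (circles, filled where the adjusted p was under 0.05) and on Dnmt3b-KO replicate 3 (diamonds, no test). Nedd4 at -0.56 is the filled circle below 0, and Bcl6, Tsc22d3, Klf6 and Klf2 are filled above 0.

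The genes most like Arrdc3 and Txnip in pattern were sought by the root mean square distance between profiles over 6 arrays, each taken relative to its control mean, among 10417 genes that lay above the median level and were not clones or predicted genes without a proper name. Trf, which encodes the iron carrier transferrin, was closest to Arrdc3, at a distance of 0.30. It was followed by Krt80, a keratin, at 0.37, Klf2 at 0.38, Dusp1, an immediate early gene for a MAP kinase phosphatase, at 0.41 and Tdrd9, a germline helicase, at 0.42. Krt80 was only 0.27 above control on replicate 3, where Arrdc3 was 1.09 above. The controls of Dusp1 ranged from 13.16 to 14.18, a wider spread than the 6.87 to 7.10 of Arrdc3. The distance to Arrdc3 is set largely by the rise over control for which Arrdc3 was chosen. Over 5 arrays these neighbours differed by 1.66 to 2.39, beside 1.80 for Arrdc3, so the likeness is no separate evidence.

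Other genes lay closest to Txnip, and at smaller distances. Map4k4, a kinase gene, was at 0.12, the interleukin receptor gene Il13ra1 at 0.15, Sqor, a mitochondrial sulfide oxidoreductase, at 0.16, Gas7 at 0.16 and Rbms1, an RNA-binding protein gene, at 0.17. All 5 were highest on Dnmt3b-KO replicate 3, by 1.94 to 2.41 above control, beside 2.24 for Txnip. The distance to Txnip is therefore set largely by that array.

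**Figure D4:**
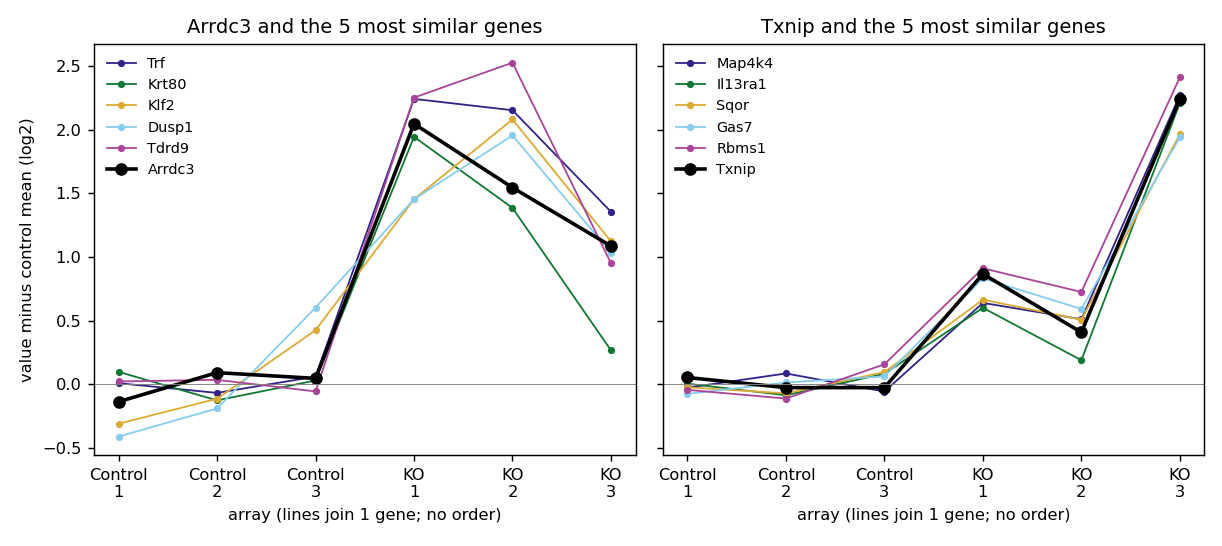
Values minus the control mean (vertical axis, log2) on each of the 6 arrays (horizontal axis) for Arrdc3 (left, black) and Txnip (right, black) and the 5 genes with the nearest profiles to each (colours). Arrdc3 and its nearest genes are highest on Dnmt3b-KO replicates 1 or 2, and Txnip and its nearest genes on replicate 3.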

How the data were processed

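Total RNA of 6 samples was hybridised to Affymetrix arrays after biotin labelling, per the labels' protocols. The deposited log2 values were made by the authors with RMA, of unstated version, per the submitters' processing notes. Of 72688 rows, 30604 had exactly 1 gene symbol, and each of 30142 genes kept its row of highest mean. All 6 members had 1 row, so the choice of row does not touch them.

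Control and Dnmt3b-KO arrays were compared with limma 3.58.1 under R 4.3.3 (lmFit, eBayes, Benjamini-Hochberg over all genes), over 6 arrays and without Dnmt3b-KO replicate 3. Only the fit over 5 arrays was tested on simulated data, with independent normal noise and no array that stood apart. Standard errors are limma's. The members, the gene lists and the comparison over 5 arrays were chosen with earlier results of these data known. Named genes were all members, Dnmt3b, partner genes past the threshold or else the one with the smallest p of each list over 5 arrays, Mlxip, Mlxipl, Mlx and Txn1, and the 5 nearest profiles, clone names passed over; other genes were named after their values were seen. Promoter sequences are RefSeq's (GRCm38.p6), matched by symbol for 6 of 6 members. Figures were drawn with matplotlib. The number of arrays limits the precision, and no batch is given in the labels. Alternatives were the variance model, array weights, a replicate block, repeated quantile normalization, centring, the mean of rows, removal of dim genes and leaving out each array.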

Additional observations from a re-analysis of the deposited data

How the results depend on the processing

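Counting identical values once and the fit without empirical Bayes were chosen after seeing the data. Over 6 arrays the count of genes past the threshold, 0, became 103 and the count of partner genes, 0, became 2 with array weights; leaving out 1 array gave 0 to 509 genes and 0 to 5 partner genes, above 0 only without Dnmt3b-KO replicate 3. Over 5 arrays the 509 genes became 96 with the replicate number as a block, 996 among genes above the median level, where fewer genes are tested, 0 without empirical Bayes, and 13 to 262 with 1 more array left out, which assumes that a lone Dnmt3b-KO array varies as the controls do. The 5 partner genes became 9 above the median level, 0 without empirical Bayes and 0 to 3 with 1 more array left out. For the other changes in these counts the cause was not tested. Deviations from the group means correlated at 0.13, 0.03 and 0.11 between samples of the same number. The Dnmt3b-KO mean includes the array that stood apart, so these values cannot decide whether the numbers are pairs. The main fits did not take them as pairs. With the replicate block over 5 arrays the partner count was 4, and Nedd4 (adjusted p = 0.072) and Bcl6 (adjusted p = 0.066) lost the threshold in limma. Over 6 arrays the difference of Arrdc2 turned to -0.02 without Dnmt3b-KO replicate 2; the other 5 members kept the sign of their difference under every alternative run for them, and over 5 arrays all 6 did. The median member difference stayed within 1 SD between arrays under every alternative run for it.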
